A study of Paralichthys olivaceus with 22 samples.

Results

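Kidney transcripts of Japanese flounder (Paralichthys olivaceus) were compared 12 h after treatment with the FKC preparation of Streptococcus iniae and 12 h after PBS. The comparison takes 8 of the 22 arrays of the study. They are the 4 arrays titled S. iniae FKC at 12 h and the 4 arrays titled PBS at 12 h, and the titles alone chose them. FKC is not spelled out in the labels, and PBS is the buffered saline that served as the control treatment. Each array carries Cy3-labelled RNA of 1 sample on a custom Agilent design of 14481 probes. The labels give no strain, age or sex of the fish, no dose or route, and no statement that the numbered samples came from separate fish. The p-values therefore speak of the spread among these samples only, and part of that spread may be technical. The study also holds S. iniae FKC arrays at 6 h (3), E. tarda FKC arrays at 6 h (3) and 12 h (4), and PBS arrays at 6 h (4), which share the estimate of the spread. The S. iniae arrays of 6 h and the E. tarda arrays of 12 h are also set beside the later response to S. iniae.

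Streptococcus iniae is a Gram-positive coccus that causes streptococcosis in farmed fish, while Edwardsiella tarda, the other bacterium of the study, is a Gram-negative rod. The kidney of bony fishes is both an excretory organ and the main site of blood cell formation. It holds phagocytes and antibody-forming cells, so whole-kidney RNA mixes the transcripts of many cell types. In such RNA, fewer cells of a type and less RNA per cell cannot be told apart. The array's probes carry contig names or GenBank entries. The files pair neither with a gene name, and 0 of the names matched the table of RefSeq genes supplied, so the tissue could not be checked against marker genes. The response is therefore given for sets of probes, with IDs for only 2 rising and 2 falling probes.

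Values are log2 processed signal minus the 75th percentile of the array, called the normalized log2 level here. A probe counts as measured on an array where the scanner software marked it well above background. Of the probes, 11066 were measured on 3 or more arrays of the 22 and entered the test. The 75th percentile of the signal lay between 366 and 470 on the S. iniae arrays and between 318 and 333 on the PBS arrays, without overlap (exact two-sided permutation p = 0.0286, the smallest that 4 against 4 arrays allow, and 0.143 after adjustment over 5 array measures). Between 8351 and 8906 probes were well above background on the S. iniae arrays, and between 8195 and 9140 on the PBS arrays (exact permutation p = 0.8). Slide 2 held the S. iniae arrays of 12 h and slide 3 the PBS arrays, both in row 2, so slide and treatment cannot be told apart. The 7 spike-in probes that entered the test, of 10 on the array, report added control RNA. Their change was between -0.35 and -0.23 after S. iniae FKC, with 0 of 7 at an unadjusted limma p under 0.05 and a smallest p of 0.0827. All 7 thus lay lower. On the E. tarda arrays of 12 h, also on slide 2, their change against PBS was between -0.31 and -0.16. Among the PBS arrays, replicate 2 stood apart. It differed from the other PBS arrays by a median of 0.372 to 0.399 on the log2 scale over probes, where the remaining pairs differed by 0.201 to 0.257. Pairs of S. iniae arrays differed by 0.325 to 0.384.

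At 12 h, 644 probes rose and 589 fell after S. iniae FKC, which was 11.1% of the probes tested (limma, Benjamini-Hochberg adjusted p under 0.05). Rises made up 5.82% of the tested probes and falls 5.32%. The median rise was 1.0 on the log2 scale and the median fall -0.94, or 1.92-fold. The rises reached further than the falls. Changes of 2-fold or more were seen in 324 rises and 250 falls. Those of 4-fold or more were 88 rises and 25 falls, and those of 16-fold or more were 16 rises and 0 falls. The smallest changes that passed were 0.39 for a rise and 0.45 for a fall.

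The excess of large rises was also present among probes measured on all 8 arrays. Of these 7344 probes, 481 rose and 410 fell. Their rises of 4-fold or more numbered 37 and the falls 6, and past 8-fold there were 16 rises and 1 fall. The single fall past 8-fold is the contig probe CUST_12227_PI426483990 described below. The share called was 12.1% among the probes measured on all 8 arrays and 9.19% among the other 3722. The arrays of both groups did not overlap in 538 of the 644 rises and 511 of the 589 falls. Over all tested probes the groups did not overlap in 18.6%, with 7.99% higher and 10.7% lower after S. iniae FKC.

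Some changes were a matter of detection. In 87 rises and 99 falls the probe was well above background on no S. iniae array or on no PBS array. These include 6 rises and 24 falls of probes well above background on no array of either group, so their fitted sizes are not measured folds. In 31 rises the probe was well above background on all 4 S. iniae arrays and on 0 of the 4 PBS arrays. In these the level after S. iniae FKC was at least 2-fold higher than the bound for PBS in 22 probes. The bound takes, for each dim array, the higher of its lowest signal well above background and the probe's own. The median of the 31 bounds was at least 2.39-fold higher and the largest at least 7.03-fold higher. In 18 falls the probe was well above background on all 4 PBS arrays and on 0 of the 4 S. iniae arrays. There the level after S. iniae FKC was at least 2-fold lower in 7 probes, and the largest bound was at least 5.86-fold lower.

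The split between rises and falls moved with the scaling of the arrays. The median change of all tested probes was -0.09 with the scaling used here. It was 0.05 with arrays scaled to their median and 0.18 with arrays scaled to the spike-in probes, an alternative chosen after seeing the data. Scaling to the median gave 897 rises and 356 falls, and scaling to the spike-in probes gave 574 rises and 96 falls. The share of rises among the calls was thus 52.2%, 71.6% and 85.7% in these 3 scalings. Falls outnumbered rises under 2 other settings, with 477 rises and 574 falls in the fit of the 8 arrays alone and 1029 rises and 1146 falls with array weights. The count of 1233 calls also rested on single arrays. It was 806 without S. iniae replicate 2, 724 without PBS replicate 3 and 741 without PBS replicate 4, and it was 1372 without PBS replicate 2, the array that stood apart.

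**Figure D1:**
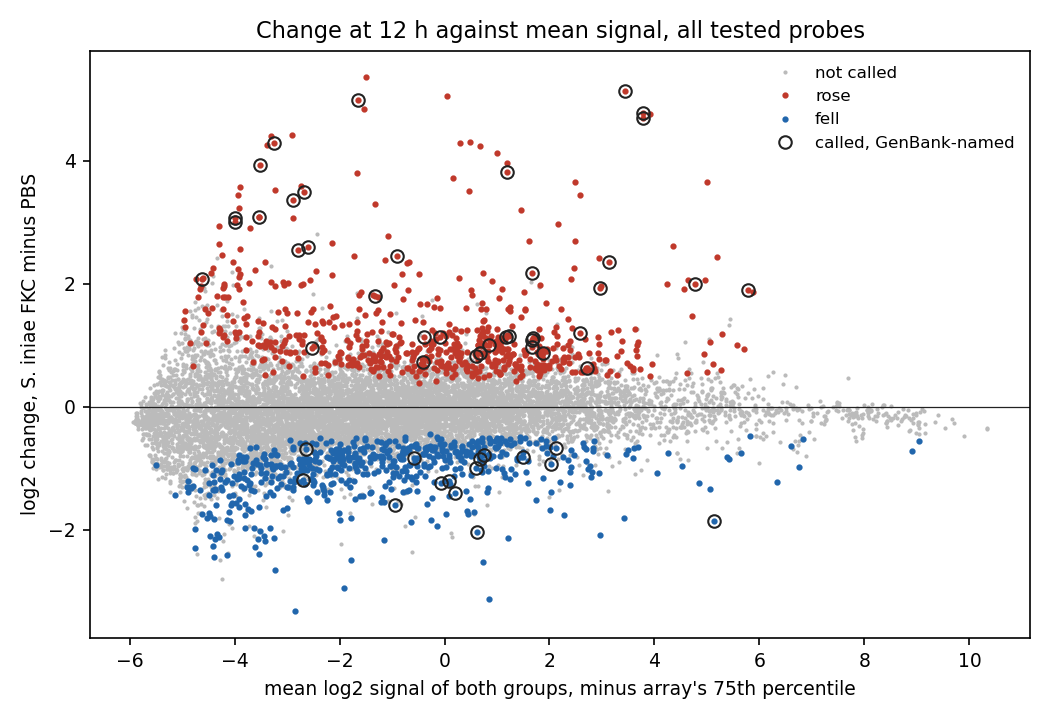
Change in log2 signal at 12 h (S. iniae FKC minus PBS, vertical axis) against the mean normalized log2 level of both groups (horizontal axis) for the 11066 tested probes, with the 644 rises in red, the 589 falls in blue and a black ring around the 52 called probes named by a GenBank entry. Rises reach 5.35 and falls -3.32 on the log2 scale, and 12 of the ringed rises lie at 3 or more.

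The 20 largest rises lay between 3.80 and 5.35 on the log2 scale, with a median of 4.35. All 20 had S. iniae arrays that lay wholly above the PBS arrays. Among them, 10 were measured on all 8 arrays, and 5 were not well above background on any PBS array, so the fitted size of those 5 is not a measured fold. The largest, of 5.35, was of a probe well above background on 1 of the 4 PBS arrays, so its size is not fully measured either. GenBank entries named 7 of the 20. Some of the 20 had nearly the same levels. A pair of contig probes had levels of -2.67 and -2.96, 0.35 and 0.35, -0.62 and -0.78, and -1.49 and -1.61 on S. iniae replicates 1 to 4. Counts out of these 20, here and below, may therefore hold the same transcript more than once, which was not tested. The 20 largest falls lay between -3.32 and -2.11, with a median of -2.29. In 18 of them the groups did not overlap, but 4 were measured on all 8 arrays and 12 were not well above background on any S. iniae array.

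Among probes that were called, did not overlap and were measured on all 8 arrays (409 rises and 365 falls), the largest rise was that of CUST_385_PI426483993, named by the GenBank entry AB111860. Its normalized log2 level was 5.52, 6.19, 6.27 and 6.03 on the S. iniae arrays, against 1.31, 1.16, 0.86 and 0.17 on the PBS arrays. The 4 treated arrays lay close together and more than 4 log2 units above the highest PBS array. The means were 6.00 ± 0.34 after S. iniae FKC and 0.88 ± 0.51 after PBS (SD, n = 4 each), so the probe rose by 5.13 (limma SE 0.46, adjusted p = 1.27e-06), which is 35.0-fold.

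The largest such rise among the contig probes was that of CUST_40_PI426500383, of contig JFC06455_1_code. Its level was 5.90, 6.86, 7.01 and 5.42 on the S. iniae arrays, against 2.13, 2.57, 0.26 and 1.18 on the PBS arrays. Both groups were spread, with replicates 2 and 3 above replicates 1 and 4 after S. iniae FKC, but no PBS array reached the lowest treated array. The means were 6.30 ± 0.76 after S. iniae FKC and 1.54 ± 1.03 after PBS (SD, n = 4 each), so the probe rose by 4.76 (limma SE 0.40, adjusted p = 1.10e-06), which is 27.1-fold.

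Among falls of the same kind the largest was that of CUST_12227_PI426483990, of contig JFC16209_1_code. Its level was 1.06, -1.58, -2.05 and -0.32 on the S. iniae arrays, against 2.95, 1.45, 2.44 and 2.78 on the PBS arrays. The treated arrays spanned 3.1 log2 units, and the highest of them, replicate 1 at 1.06, lay below the lowest PBS array at 1.45. The means were -0.72 ± 1.39 after S. iniae FKC and 2.40 ± 0.67 after PBS (SD, n = 4 each). The fall of -3.13 (SE 0.80, limma adjusted p = 0.0164) or 8.73-fold lost its call without S. iniae replicate 2 (limma adjusted p = 0.0561) and without S. iniae replicate 3 (limma adjusted p = 0.0575).

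The largest fall among the GenBank-named probes was smaller and tighter. CUST_254_PI426483993, named by entry AB240541, had levels of -0.45, -0.02, -0.59 and -0.53 on the S. iniae arrays, against 1.56, 1.46, 1.87 and 1.63 on the PBS arrays. All 4 treated arrays lay below the lowest PBS array by more than 1 log2 unit. The means were -0.40 ± 0.26 after S. iniae FKC and 1.63 ± 0.18 after PBS (SD, n = 4 each), a fall of -2.03 (SE 0.25, limma adjusted p = 4.62e-05) or 4.09-fold.

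**Figure D2:**
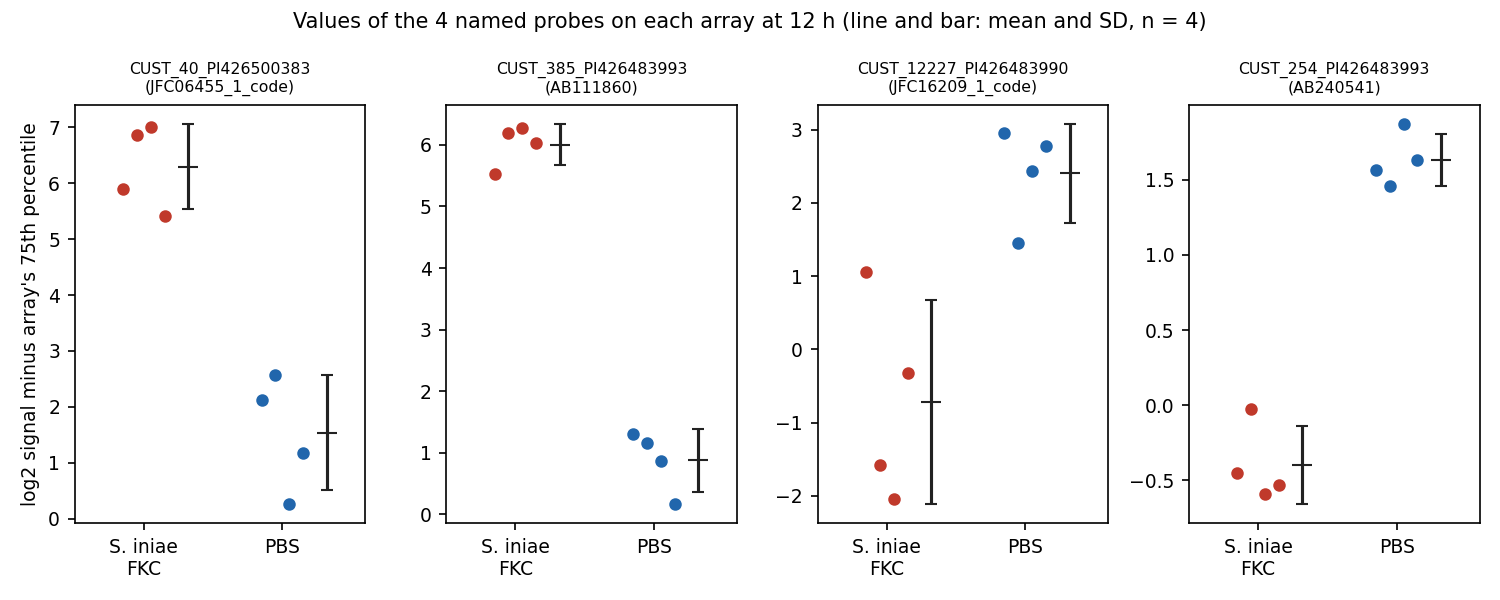
Normalized log2 level of the 4 named probes on each array at 12 h, with S. iniae FKC in red left of PBS in blue; the points of a group are replicates 1 to 4 from left to right, and the black mark and bar give the mean and SD (n = 4). In each panel the groups do not overlap, and the treated arrays of CUST_12227_PI426483990 have the widest range, from -2.05 to 1.06.

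The 4 treated arrays varied more in the strongest rises than over all probes, and so did the PBS arrays. Over all tested probes the median SD was 0.32 on the S. iniae arrays and 0.28 on the PBS arrays, and the SD was larger on the S. iniae arrays in 58.8% of probes. With arrays scaled to the spike-in probes the order turned, with 0.366 on the S. iniae arrays and 0.389 on the PBS arrays. The 18 tested probes that have 10 spots on the array varied by a median SD of 0.0667 between spots of 1 array. Between arrays their median SD was 0.27 after S. iniae FKC and 0.23 after PBS. Over the 39 rises of at least 8-fold the median SD was 0.73 on the S. iniae arrays, 0.56 on the PBS arrays and 0.39 on the E. tarda arrays of 12 h. In 29 of these 39 probes the highest and lowest S. iniae arrays were at least 2-fold apart, as were the PBS arrays in 25.

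The mean size of the rises varied between the treated arrays, which was not tested. The replicate number is also the column of the array on its slide, so sample and column cannot be told apart. Over the 644 rises the mean change from PBS was 1.16, 1.51, 1.31 and 1.14 on S. iniae replicates 1 to 4. Replicate 2 was the highest treated array in 49.5% of the rises, against 25.3% of all tested probes. Replicate 4 was the lowest in 39.0% of the rises, against 25.5% of all tested probes, and replicate 1 in 32.6%, against 24.8%. In the 20 largest rises, replicate 3 was highest in 12 and replicate 2 in 7, and replicate 1 was lowest in 13 and replicate 4 in 7. Over the 589 falls the mean change was -0.98, -1.05, -1.12 and -1.02, a narrower range. On PBS replicate 2 the same rises lay 0.31 above the mean of the other PBS arrays and the same falls lay at -0.17, where the other 3 PBS arrays lay between -0.11 and -0.10 for the rises and between -0.004 and 0.10 for the falls.

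These means rest on probes chosen with the same arrays. The 176 probes called for S. iniae FKC against PBS at 6 h, 1.59% of those tested, were chosen by a change on other arrays. The shared estimate of the spread and the filter still include the arrays of 12 h, so this list is not fully independent of them. Over the 115 that rose at 6 h the mean change at 12 h was 1.08, 1.58, 1.54 and 1.24 on S. iniae replicates 1 to 4, and between -0.15 and 0.25 on the PBS arrays set against one another. Replicates 2 and 3 were above replicates 1 and 4 here too. Of the 115 probes, 61 were also among the 644 rises of 12 h, and the arrays were the same. This order is therefore no separate result. Over the 61 that fell at 6 h the mean change at 12 h was -0.52, -0.49, -0.51 and -0.55, and between -0.06 and 0.04 on the PBS arrays. Each treated array thus lay apart from each PBS array in both lists. The PBS arrays of 6 h and 12 h were all on slide 3, and the S. iniae arrays on slides 1 and 2. A difference between slides would therefore enter both comparisons, and it cannot be told apart from the treatment here.

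**Figure D3:**
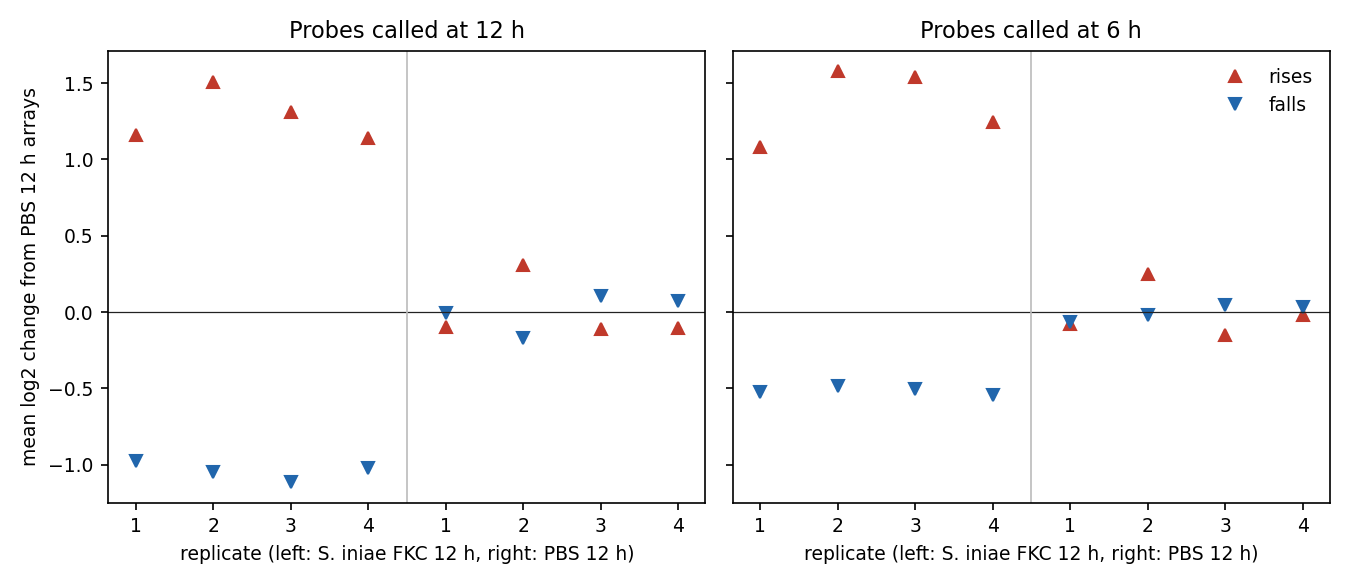
Mean log2 change from the PBS 12 h arrays (vertical axis) on each of the 8 arrays, with S. iniae FKC left of PBS; red triangles are means over rises and blue triangles means over falls, for probes called at 12 h in the left panel and at 6 h in the right panel, and each PBS array is set against the other 3. Over the rises called at 6 h the treated arrays lie between 1.08 and 1.58, and the PBS arrays between -0.15 and 0.25.

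Most probes that left the PBS range did so on part of the treated arrays. On a single S. iniae array, between 249 and 358 probes lay at least 2-fold above the highest PBS array, and between 210 and 336 lay at least 2-fold below the lowest. Replicate 2 had the most above, with 358, and replicate 3 the most below, with 336. In all, 687 probes passed this limit upward on at least 1 treated array, of which 416 did so on 1 array and 76 on all 4. Downward, 726 probes passed it, of which 485 did so on 1 array and 32 on all 4. Of the 416 probes above the limit on 1 array, 112 were among the calls, as were all 76 of those above it on all 4. Over all tested probes 11.1% were called, and 5.82% were called as rises. The limit and the calls use the same arrays, so the call of all 76 is no separate result.

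**Figure D4:**
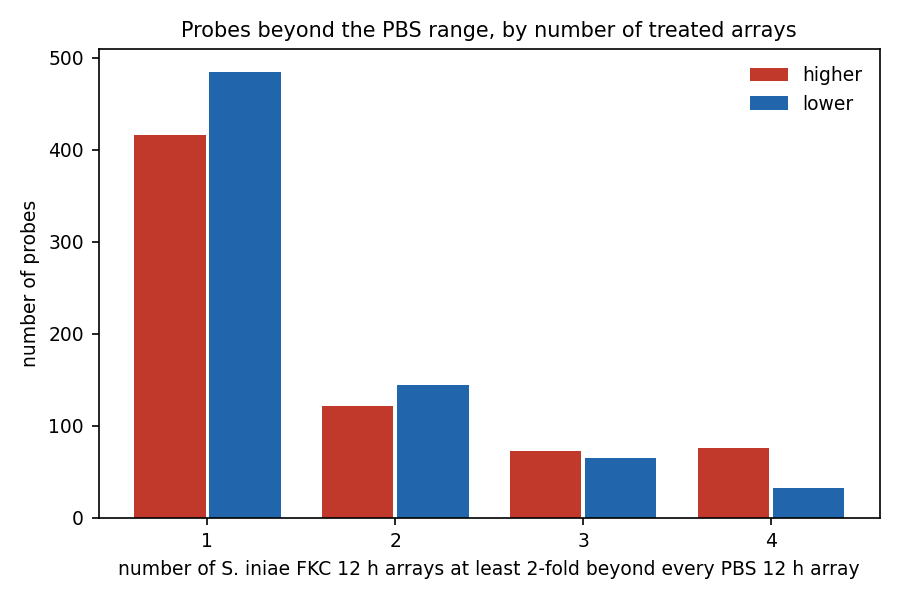
Number of probes (vertical axis) that lay at least 2-fold above every PBS 12 h array (red) or at least 2-fold below every PBS 12 h array (blue), by the number of S. iniae FKC 12 h arrays on which they did (horizontal axis). The tallest bars are those of 1 array, with 416 higher and 485 lower probes, and on all 4 arrays there are 76 higher and 32 lower probes.

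GenBank entries name 412 of the 14481 probes, and 320 of them (77.7%) were tested. At 12 h, 52 of the 320 were called, which is 16.25% against 11.1% of all tested probes. The 37 that rose are 11.6%, against 5.82% of all tested probes, and the 15 that fell are 4.69%, against 5.32%. The median change of the 320 was -0.10 and that of all tested probes -0.09. The medians were close, while the upper end of the GenBank-named list was at a 90th percentile of 1.05 against 0.60 for the probes named by the JFC contigs.

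Most GenBank-named rises were large. Of the 37 rises, 29 were at least 2-fold and 12 at least 8-fold, and their median was 1.99 on the log2 scale, against 0.99 for the 606 rises among JFC contig probes. Some entries moved almost as one. A pair of them had levels of 5.66 and 5.68, 6.68 and 6.75, 6.89 and 6.91, and 5.26 and 5.31 on S. iniae replicates 1 to 4. The contig probe CUST_40_PI426500383 lay close to this pair, at 5.90, 6.86, 7.01 and 5.42. The counts may therefore hold the same transcript more than once, which was not tested. In 33 of the 37 rises and 14 of the 15 falls the groups did not overlap. Among the rises, 7 were of probes not well above background on any PBS array, and 25 of the 37 rises and 14 of the 15 falls were measured on all 8 arrays. The median of the falls was -0.99, close to -0.94 for the JFC contig probes. Between arrays, the GenBank-named probes had a median SD of 0.43 after S. iniae FKC and 0.33 after PBS, against 0.32 and 0.28 over the JFC contig probes. The rises outnumbered the falls in each of the 20 alternatives to the processing, for example by 28 to 16 among probes measured on all 22 arrays, by 47 to 31 with array weights and by 35 to 5 with arrays scaled to the spike-in probes. A further 3 entries are each represented by a pair of tested probes. The changes within the pairs were 0.43 and 0.31, -0.56 and -0.03, and -0.16 and -0.20, and none of the 6 probes passed the test (smallest limma adjusted p = 0.0765).

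The response of 12 h was set against that of 6 h, with PBS arrays of each time as its own control. The difference between the effects was tested directly, and 105 probes passed, which is 0.949% of those tested, 43 upward and 62 downward. In the 43 the median change against PBS was 1.23 at 12 h and -0.14 at 6 h. In the 62 it was -0.90 at 12 h and 0.56 at 6 h, on lists chosen by that difference. At 12 h the effect against PBS passed the test in 1233 probes and at 6 h in 176, which by itself does not show that the effects differ. Of the 644 rises at 12 h, 38 had a higher effect at 12 h than at 6 h by this test. Of the 589 falls, 48 had a lower effect at 12 h than at 6 h, which does not mean that they lay below PBS at 6 h. No rise or fall of 12 h passed this test of the difference in the opposite direction. However, the change at 12 h that chose these lists is also part of the tested difference. The single direction is therefore partly set by that choice. Over the rises the median change was 1.0 at 12 h and 0.22 at 6 h, and over the falls -0.94 at 12 h and -0.13 at 6 h, on lists chosen at 12 h. The change at 6 h had the same sign in 74.5% of the rises, against 49.7% of all tested probes with a positive change at 6 h, and in 64.5% of the falls, against 50.3% with a negative one. Of the rises of 12 h, 61 were also called as rises at 6 h and 1 was called as a fall. Of the falls, 19 were also called as falls at 6 h and 3 were called as rises. Over all tested probes 1.59% were called at 6 h. The S. iniae arrays of 6 h were on slide 1 and those of 12 h on slide 2, so the slide and the time of sampling cannot be told apart. The spatial trend taken off had a root mean square of 0.146, 0.180 and 0.243 on the S. iniae arrays of 6 h. It was 0.073 to 0.087 on those of 12 h and 0.063 to 0.089 on the PBS arrays. What this did to the changes was not tested. The PBS arrays of both times were on slide 3, so a difference between slides would also enter the changes of both times. On that slide the PBS arrays of 6 h lay in row 1 and those of 12 h in row 2. The S. iniae arrays of both times lay in row 2. A difference between rows would thus enter the change of 6 h, which was not tested. The count of 105 rested on single arrays. It lay between 18 and 232 when 1 array was left out, lowest without S. iniae replicate 2 of 6 h and highest without PBS replicate 2 of 6 h, and it was 2 with arrays scaled to the spike-in probes.

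Most of the largest rises of 12 h also passed at 6 h, and fewer of the largest falls did, a contrast that was not itself tested. The 20 largest rises of 12 h had changes between 1.04 and 5.83 at 6 h, with a median of 2.90, and 16 of them passed the test at 6 h. The 20 largest falls had changes between -2.31 and 1.93 at 6 h, with a median of -0.29, and 3 passed. Over all tested probes 1.59% passed at 6 h in either direction, a smaller share than in both lists. Of these falls, 12 were not well above background on any S. iniae array of 12 h. At 6 h, between 10047 and 10393 probes were well above background on the S. iniae arrays, against 9134 to 9795 on the PBS arrays. What this difference did to the changes of dim probes at 6 h was not tested. Of the probes named by ID, CUST_385_PI426483993 had risen by 4.37 at 6 h (SE 0.50, limma adjusted p = 0.00017), and the difference of 0.76 between its effects at 12 h and 6 h did not pass (SE 0.68, limma adjusted p = 0.63). CUST_40_PI426500383 rose by 2.13 at 6 h (SE 0.43, limma adjusted p = 0.0148), and its effect was larger by 2.63 at 12 h (SE 0.59, limma adjusted p = 0.0392). That call held in 4 of 15 fits that left out 1 array, with the adjusted p between 0.0534 and 0.0917 in the others, and in 12 of 26 alternatives in all. It was lost with quantile normalization (limma adjusted p = 0.0544) and with arrays scaled to the spike-in probes (limma adjusted p = 0.217). CUST_12227_PI426483990 changed by 0.08 at 6 h (SE 0.86, limma adjusted p = 0.984). The difference of -3.20 between its effects did not pass (SE 1.18, limma adjusted p = 0.18), with levels on the 4 PBS arrays of 6 h that spanned 4.19 log2 units. CUST_254_PI426483993 changed by -0.95 at 6 h (SE 0.27, limma adjusted p = 0.0886), and the difference of -1.08 between its effects did not pass (SE 0.37, limma adjusted p = 0.148).

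At the same time and on the same slide, the kidneys after S. iniae FKC were compared with those after E. tarda FKC. There were 1032 probes higher and 1046 lower after S. iniae FKC, which is 18.8% of those tested (9.33% higher and 9.45% lower). Differences of at least 8-fold were mostly toward E. tarda, with 12 probes higher and 52 lower after S. iniae FKC. In the 1032 probes that were higher after S. iniae FKC, the median change against PBS was -0.24 after S. iniae FKC and -1.21 after E. tarda FKC. In the 1046 that were lower, these medians were 0.12 and 1.35. The lists were chosen by the difference between the preparations, and both changes share the PBS arrays, so the medians are given side by side only. The preparations lay in different rows of the slide, and the spike-in probes differed by -0.09 to 0.03 between them.

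Most of the largest rises were smaller after S. iniae FKC than after E. tarda FKC. The largest falls differed about as often as all tested probes did. For the 20 largest rises the median change against PBS was 4.35 after S. iniae FKC and 6.69 after E. tarda FKC. In 16 of the 20 the level was lower after S. iniae FKC by the direct test, against 9.45% of all tested probes. The 20 may hold the same transcript more than once, which was not tested. For the 20 largest falls the medians were -2.29 after S. iniae FKC and -2.58 after E. tarda FKC. Of the 20, 4 differed, where 18.8% of all tested probes differed in either direction. All 4 were higher after S. iniae FKC, as were 9.33% of all tested probes. In 12 of the 20 falls the probe was well above background on no S. iniae array. A still lower level after E. tarda FKC may not be seen in these. For CUST_40_PI426500383, S. iniae FKC minus E. tarda FKC was -1.85 (limma SE 0.40, adjusted p = 0.00285), with means of 6.30 ± 0.76 after S. iniae FKC and 8.15 ± 0.12 after E. tarda FKC (SD, n = 4 each). CUST_385_PI426483993 differed by 0.30 (SE 0.46, limma adjusted p = 0.716), with means of 6.00 ± 0.34 after S. iniae FKC and 5.71 ± 0.63 after E. tarda FKC (SD, n = 4 each). CUST_12227_PI426483990 was higher after S. iniae FKC by 3.79 (SE 0.80, limma adjusted p = 0.00246), and it was well above background on 2 of the 4 E. tarda arrays. This difference was 1.68 with a limma adjusted p of 0.0525 after normexp background correction and quantile normalization. CUST_254_PI426483993 was the named probe that lay lower after S. iniae FKC although it had fallen against PBS after both preparations, by -2.03 after S. iniae FKC and by -0.93 after E. tarda FKC. The difference of -1.11 passed the test (SE 0.25, limma adjusted p = 0.00408).

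**Figure D5:**
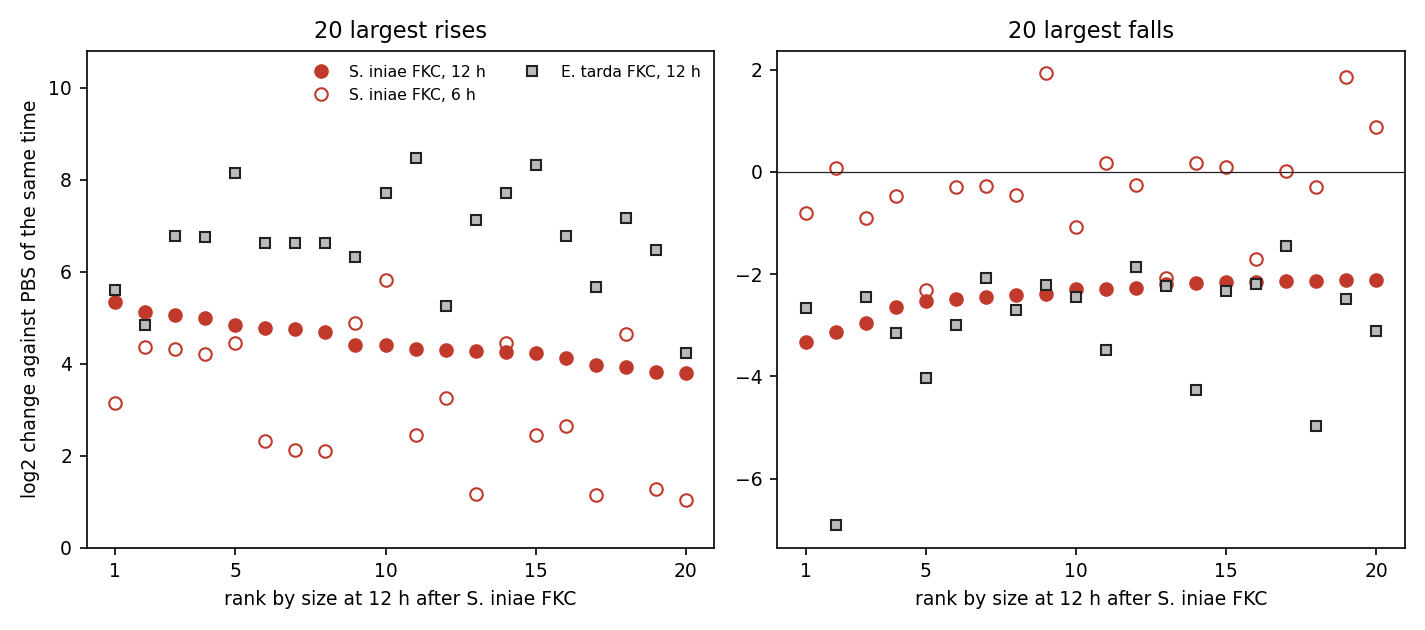
Log2 change against PBS of the same time (vertical axis) for the 20 largest rises (left) and the 20 largest falls (right) of S. iniae FKC at 12 h, ordered by rank (horizontal axis); filled circles are S. iniae FKC at 12 h, open circles S. iniae FKC at 6 h and squares E. tarda FKC at 12 h. The squares of the rises reach 8.48 with a median of 6.69, and the open circles of the falls scatter around -0.29.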

How the data were processed

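Kidney RNA on 22 1-colour arrays was analysed from the scanner files. The deposited spot intensity values come from Feature Extraction 10.7.3.1, per the file headers, with the background and a spatial trend removed array by array. The version in the submitters' processing notes is 9.5.3.1. Flags for background, outliers and saturation are other values the deposited files give. The authors' table of log2 values holds log2 signal from which the array's 75th percentile and the median of the PBS arrays of that time were taken off: 99.99% of its values lay within 0.1 of that reconstruction and 53.3% within 0.01. Its column medians on the 8 arrays ranged from -0.206 to 0.0274. It served as one of the alternatives.

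Control and outlier spots were left out, no spot of a probe was saturated (0), and spots of a probe were averaged. A model of 6 group means over the 22 arrays was estimated by lmFit and eBayes of limma 3.58.1 (R 4.3.3, 16 residual degrees of freedom), and p-values were adjusted over all 11066 probes at a threshold of 0.05. On data simulated for S. iniae FKC against PBS at 12 h with 11066 probes, 200 of them changed, 44% of 2-fold and 90% of 4-fold changes were recovered, and 5 of 139 calls were false. Depth is set by the signal over background and the number of arrays. Array measures were compared by exact permutation. IDs were limited to the largest rise and fall among contig probes and among GenBank-named probes that were called, did not overlap and were measured on all 8 arrays. Alternatives changed the background correction, scaling, filter, outlier spots, weights, samples fitted and replicate block, or left out 1 array. The comparison, its lists and its rules were chosen with earlier results of these data known. Samples were not paired by replicate number in the main fit. The deviations of same-numbered arrays correlated at 0.13, 0.21, -0.11 and -0.14. Over all pairs of an S. iniae and a PBS array the range was -0.21 to 0.21. These values do not settle whether the samples were paired.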

Additional observations from a re-analysis of the deposited data

Results flagged for a closer look

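These results differed between conditions by a direct test. The effect of S. iniae FKC differed between 12 h and 6 h in 105 probes, and the level at 12 h differed between S. iniae FKC and E. tarda FKC in 2078 probes. CUST_40_PI426500383 had an effect that was larger by 2.63 at 12 h than at 6 h, a call kept in 12 of 26 alternatives. The same probe was lower by -1.85 after S. iniae FKC than after E. tarda FKC. CUST_12227_PI426483990 was higher by 3.79 after S. iniae FKC than after E. tarda FKC, and CUST_254_PI426483993 lower by -1.11. Among 34 checks for 1 array far from the other 3 of its group, over the named probes, the array measures and the mean changes per array, 1 passed Dixon's limit, which chance passes in about 1 of 20 groups. It was PBS replicate 2 of 12 h, where the 644 rises lay 0.31 above the mean of the other PBS arrays. Without that array 1372 probes were called at 12 h.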

How the results depend on the processing

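The count of 1233 calls at 12 h stayed within 1.5 times under 10 of 13 other settings. It was 2175 with array weights, 574 with a 2-fold minimum and 670 with arrays scaled to the spike-in probes, which was added after seeing the data, and leaving out 1 array gave 724 to 1372. With a replicate block it was 1192, and the block moved no count by over 1.5 times except that of the time difference, which was 33. The call of CUST_40_PI426500383 for time was lost with the replicate block (2.72, limma adjusted p = 0.0651), quantile normalization (2.59, 0.0544) and the spike-in scaling (2.81, 0.217). The count of 105 was 309 with normexp and quantile normalization, 57 with quantile normalization, 947 with array weights and 2 with the spike-in scaling, and 18 to 232 with 1 array left out. The 2078 differences from E. tarda FKC were 1349 in the fit of those arrays alone, 1245 with the spike-in scaling, and 1644 to 1820 with 1 array left out. The 52 calls among GenBank-named probes stayed within 1.5 times, between 40 and 78. The causes of these movements were not tested, except that a 2-fold minimum can only remove calls. The changes of the 4 named probes against PBS kept their direction and, apart from CUST_12227_PI426483990 with 1 array left out (-3.72 to -2.68), their call. Median SDs were 0.168 on the S. iniae arrays and 0.151 on the PBS arrays after normexp and quantile normalization. Probes near background limit the sizes.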
